A study of Mus with 10 samples.

Results

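This account covers 10 genes of the system that cuts and remodels the extracellular matrix of skin: 7 matrix metalloproteinase genes (Mmp2, Mmp3, Mmp9, Mmp10, Mmp12, Mmp13 and Mmp14) and 3 genes of their tissue inhibitors (Timp1, Timp2 and Timp3). They were taken by symbol from the 22180 genes with a value on the arrays, and each had 1 probe set, a group of array probes read as 1 value. The RNA came from skin of female BALB/c mice, 7 to 8 weeks old per the labels, and 10 Affymetrix arrays read it: 2 of control skin, 4 of skin labelled PUVA 3D and 4 of skin labelled PUVA 7D. In PUVA, psoralen is put on the skin and UVA light then makes it bind DNA, here at 0.25 J/cm2 on 2 days of the week for 2 weeks per the labels. The protocol then names imiquimod (a drug that gives mice a psoriasis-like dermatitis), given with an interval of 3 days or of 7 days, and with none in the controls. It does not say whether the arrayed skin, control skin included, had received imiquimod or when it was taken, so the groups are named as labelled and 3D and 7D are not read as times of sampling. No allele or transgene is named. Nothing in the labels says that the samples came from separate mice, so the p-values rest on the scatter of these samples alone, and part of that scatter could be technical.

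Metalloproteinases are zinc enzymes, made as inactive precursors, that cut collagens, elastin, proteoglycans and many signalling proteins outside the cell. TIMP proteins bind the active site of the mature enzymes and block it, so the balance of both families sets how much matrix is cut. In skin they are known from wound repair, hair growth, inflammation and the breakdown of collagen after UV light. Fibroblasts, keratinocytes, macrophages and neutrophils make different members. The arrays measure RNA and say nothing of enzyme activity.

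Expression was read on the log2 scale, where a difference of 1 is a doubling of signal. Array medians lay between 5.83 and 5.86. Keratinocyte markers were bright in every group, as skin should show, with Krt14 at 11.8 to 12.2. Both controls differed most in hair follicle genes, with a mean over 11 hair shaft and inner root sheath genes of 6.01 in replicate 1 and 8.60 in replicate 2, against 4.77 to 5.20 in the PUVA arrays. PUVA 3D replicates 2 and 3 also stood apart in single genes: 35 and 13 genes lay more than 1 above the highest of the other 9 arrays, against 0 in PUVA 3D replicates 1 and 4 and 70 in control replicate 2. In replicate 2 these genes included Msr1, a macrophage scavenger receptor, and the monocyte chemokine genes Ccl7 and Ccl12, but also the kallikrein gene Klk1 and the collagen hydroxylase gene P4ha3, all named after their values were seen. For the 10 genes, where leaving out one of these arrays moved a difference by much, the value without it is given. Among single genes of the other lists it was computed only for Mmp11. For some of those that stood apart on 1 array, the array values are given instead. Differences were tested with limma over all genes, and a gene was called where the adjusted p was under 0.05. In whole skin, fewer cells of a type and less RNA per cell cannot be told apart.

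In PUVA 3D skin, all 10 genes had mean values above control, where 50.6% of all genes had, with a median log2 difference of 0.31 against 0.0023 over all genes tested. The largest differences were those of Mmp13, a collagenase (0.89), and Timp1, an inducible inhibitor (0.50). In PUVA 7D skin the same median was 0.0054, with 5 genes above control, where 55% of all genes lay above it, and 5 below. Set directly against PUVA 3D, PUVA 7D was lower in 8 of the 10 genes, against 46.8% of all genes, with a median of -0.26 against 0.0095 over all genes. The PUVA 3D median against control was 0.20 without control replicate 1, where 9 of the 10 genes lay above control, and 0.45 without control replicate 2, where all 10 did. The PUVA 7D median against control was -0.026 with quantile normalization and -0.058 without control replicate 1, so it has no settled sign. Without any 1 array the PUVA 7D minus PUVA 3D median ran from -0.35 to -0.19, with 8 to 10 of the genes lower in PUVA 7D. None of these differences passed the adjusted threshold, so none is called a change.

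The counts behind these statements were as follows. In PUVA 3D against control, 0 of the 10 genes passed the adjusted threshold in limma, against 0.00451% of all genes. At an unadjusted p under 0.05, 3 were higher (Mmp13, Timp1 and Timp2), where 5.67% of all genes were, and none was lower, against 4.07%. In 2 of the 10 (Timp1 and Timp2) all 4 PUVA 3D arrays lay above both controls, which held for 9.52% of all genes. In PUVA 7D against control, 0 passed, as for all genes (0%), and 0 had an unadjusted p under 0.05, against 5.89% of all genes. All PUVA 7D arrays lay below both controls in 2 genes (Mmp12 and Timp1), against 5.85% of all genes. In PUVA 7D against PUVA 3D, 0 passed, against 0.00902%. At an unadjusted p under 0.05, 4 were lower (Mmp13 and the 3 Timp genes), against 4.43% of all genes, and none was higher, against 5.33%. The arrays did not overlap and PUVA 7D was lower in 2 of them (Mmp13 and Timp1), against 2.28%. The comparisons with control share both control arrays and are not independent of each other. PUVA 3D minus control and PUVA 7D minus PUVA 3D share the 4 PUVA 3D arrays, with opposite sign. High values on those arrays raise the first and lower the second, so mirrored differences are not 2 separate results. The 10 genes were chosen with earlier results of these data known, so the counts describe them and support no claim about the family.

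**Figure D1:**
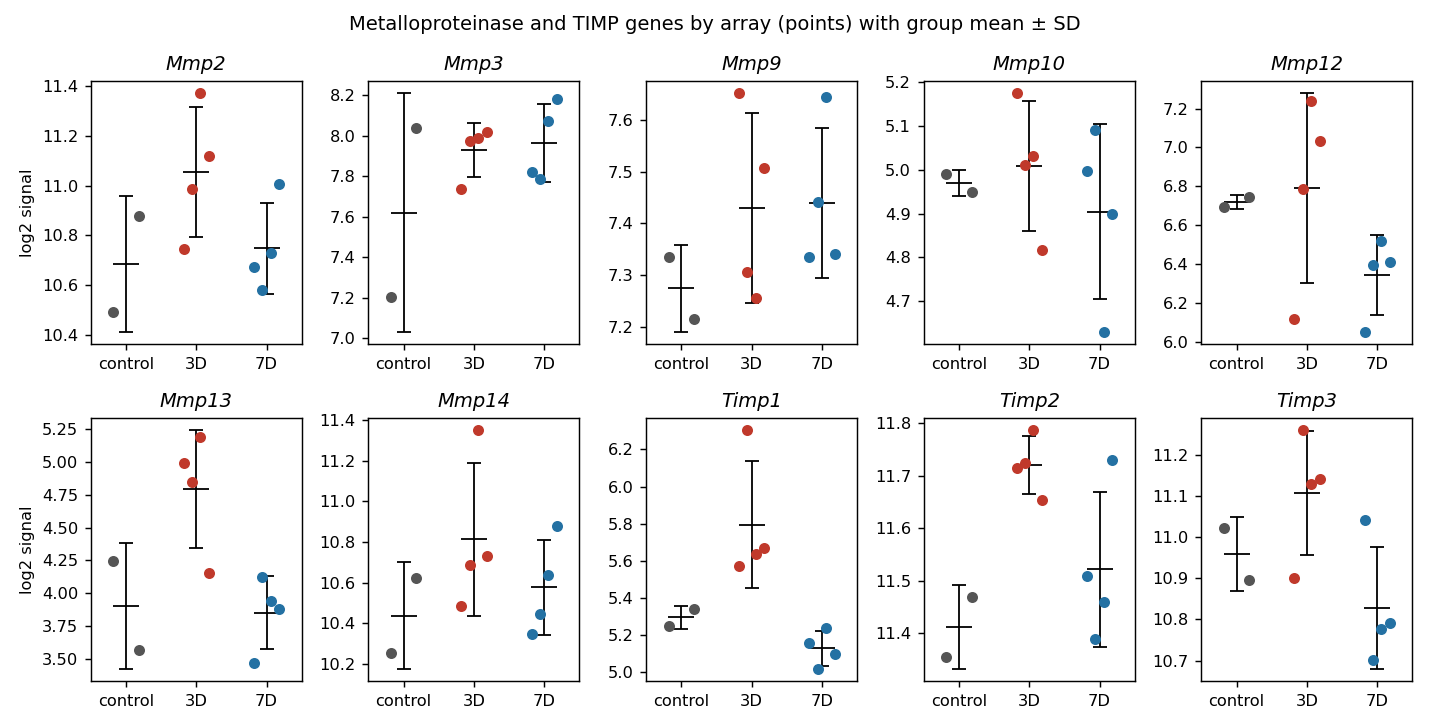
Log2 signal of the 10 genes (1 panel each, with its own vertical scale) in 2 control, 4 PUVA 3D and 4 PUVA 7D arrays; points are arrays, and bars are group means ± SD. Timp1 and Mmp13 show no overlap between PUVA 3D and PUVA 7D arrays, whereas Mmp9 and Mmp10 overlap between all groups, in Mmp9 only just between control and PUVA 7D.

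Among the enzymes, Mmp13 (probe set 17514482) encodes collagenase 3, a major collagenase of mouse skin, which opens the triple helix of fibrillar collagens. Its log2 values were 4.24 and 3.57 in the controls, 4.99, 4.85, 5.19 and 4.15 in PUVA 3D, and 3.47, 4.12, 3.94 and 3.88 in PUVA 7D. PUVA 3D replicates 1 to 3 stood above all other arrays, while PUVA 3D replicate 4 lay just above the highest PUVA 7D array and below control replicate 1. The group means were 3.91 ± 0.48 (SD, n = 2) in control, 4.79 ± 0.45 (SD, n = 4) in PUVA 3D and 3.85 ± 0.28 (SD, n = 4) in PUVA 7D. The PUVA 7D minus PUVA 3D difference was -0.94 ± 0.23 (SE), or 0.521 times the signal, with a limma p of 0.00203 unadjusted and 0.271 adjusted. It stayed between -1.15 and -0.81 when any 1 array was left out. Its unadjusted limma p was 0.00954 or less under all 17 alternatives run for it, some of which repeat the same fit. Against control the PUVA 3D difference was 0.89 ± 0.28 (1.85-fold, unadjusted p 0.00986, adjusted p 0.382 in limma), and it depended on the control: 0.55 without control replicate 2 (unadjusted p 0.140 in limma) and 1.23 without control replicate 1. The PUVA 7D difference from control was -0.05 ± 0.28. All control and PUVA 7D values of Mmp13 lay below the lower quartile of all genes (4.49 to 4.57), near the dim end of the arrays. Signal over background was not analysed here.

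The gelatinases cut denatured collagen and basement membrane collagen. Mmp2, made mainly by fibroblasts, had values of 10.49 and 10.88 in control, 10.75, 10.99, 11.37 and 11.12 in PUVA 3D, and 10.67, 10.58, 10.73 and 11.01 in PUVA 7D. The groups overlapped, although PUVA 3D replicates 3 and 4 were above every other array. Between PUVA 7D and PUVA 3D the difference was -0.31 ± 0.14 (adjusted p 0.529 in limma), with a 95% interval of -0.63 to 0.01. It was -0.20 without PUVA 3D replicate 3 (unadjusted p 0.168 in limma) and -0.41 without PUVA 3D replicate 1 (unadjusted p 0.0142). PUVA 3D minus control was 0.37 ± 0.18, and 0.18 or 0.57 without control replicate 1 or 2, and 0.27 without PUVA 3D replicate 3. Mmp9, the gelatinase of neutrophils, macrophages and activated keratinocytes, lay within 7.21 to 7.65 on all 10 arrays. Its groups overlapped in each comparison, and the PUVA 7D minus PUVA 3D difference was 0.01 ± 0.10, with a 95% interval of -0.22 to 0.24. Against control the Mmp9 differences were 0.16 ± 0.13 in PUVA 3D and 0.17 ± 0.13 in PUVA 7D (adjusted p 0.754 and 0.946 in limma). Without control replicate 2 they were 0.096 and 0.11. Control and PUVA 7D overlapped only just, with PUVA 7D replicate 1 at 7.3343 and control replicate 1 at 7.3344.

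Mmp14 encodes a membrane-anchored metalloproteinase known to activate the precursor of MMP-2 at the cell surface. Its values were 10.25 and 10.62 in control, 10.48, 10.69, 11.35 and 10.73 in PUVA 3D, and 10.35, 10.45, 10.64 and 10.88 in PUVA 7D. PUVA 3D replicate 3 was the highest array, as for Mmp2, and the groups overlapped. PUVA 3D minus control was 0.37 ± 0.23 (adjusted p 0.642 in limma), 0.19 or 0.56 without control replicate 1 or 2, and 0.20 without PUVA 3D replicate 3. Set against PUVA 3D, PUVA 7D had -0.24 ± 0.18, and -0.06 without PUVA 3D replicate 3. Of the 45 pairs among the 10 genes, Mmp2 and Mmp14 had the highest correlation over the 10 arrays, with Pearson's r of 0.93 and Spearman's rho of 0.94. With the group means removed r was 0.93, and without the 2 arrays farthest from the median of Mmp2 it was 0.83. This pair was picked from the 45 after their values were seen, and its arrays share the tissue and the normalization, so the correlation is a description. The median r over all pairs was 0.32, and 31 of 45 were above 0.

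The stromelysins cut proteoglycans, fibronectin and other matrix proteins, and MMP-3 also activates other metalloproteinases. Mmp3 stood at 7.20 and 8.04 in the controls, a gap wider than the whole range of 7.74 to 8.18 over the 8 PUVA arrays. The low value was that of control replicate 1, and the comparisons with control rest on it. The fitted differences were 0.31 ± 0.20 in PUVA 3D and 0.34 ± 0.20 in PUVA 7D, and without control replicate 1 they were -0.11 and -0.074. The PUVA 7D minus PUVA 3D difference of Mmp3 was 0.03 ± 0.17, with a 95% interval of -0.33 to 0.40. Mmp10, the stromelysin of migrating keratinocytes in wounds, lay between 4.63 and 5.18 on all arrays, with all 3 groups overlapping. Its largest fitted difference was -0.10 ± 0.11 for PUVA 7D minus PUVA 3D.

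Mmp12 encodes macrophage metalloelastase, which cuts elastin. Values were 6.69 and 6.74 in control, 6.12, 6.79, 7.24 and 7.03 in PUVA 3D, and 6.05, 6.40, 6.52 and 6.41 in PUVA 7D. The PUVA 7D arrays lay below both controls, and PUVA 3D was split, with replicate 1 near the lowest PUVA 7D array and the other 3 above both controls. For Mmp12, PUVA 7D minus PUVA 3D was -0.45 ± 0.21 (adjusted p 0.522 in limma). It was -0.67 without PUVA 3D replicate 1 (unadjusted p 0.000527, adjusted p 0.122 in limma) and -0.30 without PUVA 3D replicate 3. PUVA 3D minus control was 0.07 ± 0.25, and -0.07 without PUVA 3D replicate 3. PUVA 7D minus control was -0.37 ± 0.25 (adjusted p 0.932).

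Timp1 (probe set 17533713) encodes an inhibitor that cytokines and wounding are known to induce. Its values were 5.25 and 5.34 in control, 5.57, 6.31, 5.63 and 5.67 in PUVA 3D, and 5.16, 5.02, 5.24 and 5.10 in PUVA 7D. Every PUVA 3D array lay above both controls and every PUVA 7D array below both, so no 2 groups overlapped. Means were 5.30 ± 0.06 (SD, n = 2) in control, 5.79 ± 0.34 (SD, n = 4) in PUVA 3D and 5.13 ± 0.09 (SD, n = 4) in PUVA 7D. PUVA 7D minus PUVA 3D was -0.67 ± 0.15 (SE), or 0.630 times the signal, with a limma p of 0.000867 unadjusted, rank 77 of the 22180 genes, and 0.235 adjusted. PUVA 3D replicate 2, the array on which 35 genes stood apart, was the highest. Without it the difference was smaller, at -0.50, with an unadjusted p of 7.51e-05 and an adjusted p of 0.151 in limma. Leaving out any other array gave -0.74 to -0.63. PUVA 3D minus control was 0.50 ± 0.18 (1.41-fold, adjusted p 0.439), and 0.33 without that array, with an unadjusted p of 0.00475 in limma. Without control replicate 1 the unadjusted p was 0.0882. PUVA 7D minus control was -0.17 ± 0.18 (adjusted p 0.964), less than the fitted error.

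Timp2 encodes an inhibitor made steadily by fibroblasts that also takes part, with MMP-14, in activating MMP-2. It stood at 11.36 and 11.47 in control, 11.71, 11.72, 11.79 and 11.65 in PUVA 3D, and 11.51, 11.39, 11.46 and 11.73 in PUVA 7D. All PUVA 3D arrays were above both controls, and PUVA 7D replicate 4 reached the PUVA 3D range while the other PUVA 7D arrays did not. PUVA 3D minus control was 0.31 ± 0.10 (1.24-fold, unadjusted p 0.0110, adjusted p 0.394 in limma), and 0.25 or 0.36 without control replicate 1 or 2. PUVA 7D minus PUVA 3D was -0.20 ± 0.08 (adjusted p 0.483). Its unadjusted limma p was under 0.05 in 10 of 18 alternatives, and the difference ran from -0.27 to -0.15 when arrays were left out in turn.

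Timp3 encodes the inhibitor that stays bound to the matrix and also blocks ADAM proteases such as ADAM17. Values were 11.02 and 10.90 in control, 10.90, 11.26, 11.13 and 11.14 in PUVA 3D, and 11.04, 10.70, 10.78 and 10.79 in PUVA 7D. PUVA 3D replicates 2 to 4 lay above both controls and PUVA 7D replicates 2 to 4 below both, with 1 array of each PUVA group crossing over. PUVA 7D minus PUVA 3D was -0.28 ± 0.10 (0.824 times, adjusted p 0.440 in limma). Its unadjusted limma p stayed under 0.05 in all 18 alternatives, up to 0.0491, and some of these repeat the same fit. Against control the differences were 0.15 ± 0.12 in PUVA 3D and -0.13 ± 0.12 in PUVA 7D, with 95% intervals that include 0 (-0.12 to 0.41 and -0.40 to 0.13). The first was 0.085 without control replicate 2 and 0.097 without PUVA 3D replicate 2, and the second was -0.068 without control replicate 1 and -0.20 without PUVA 7D replicate 1.

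**Figure D2:**
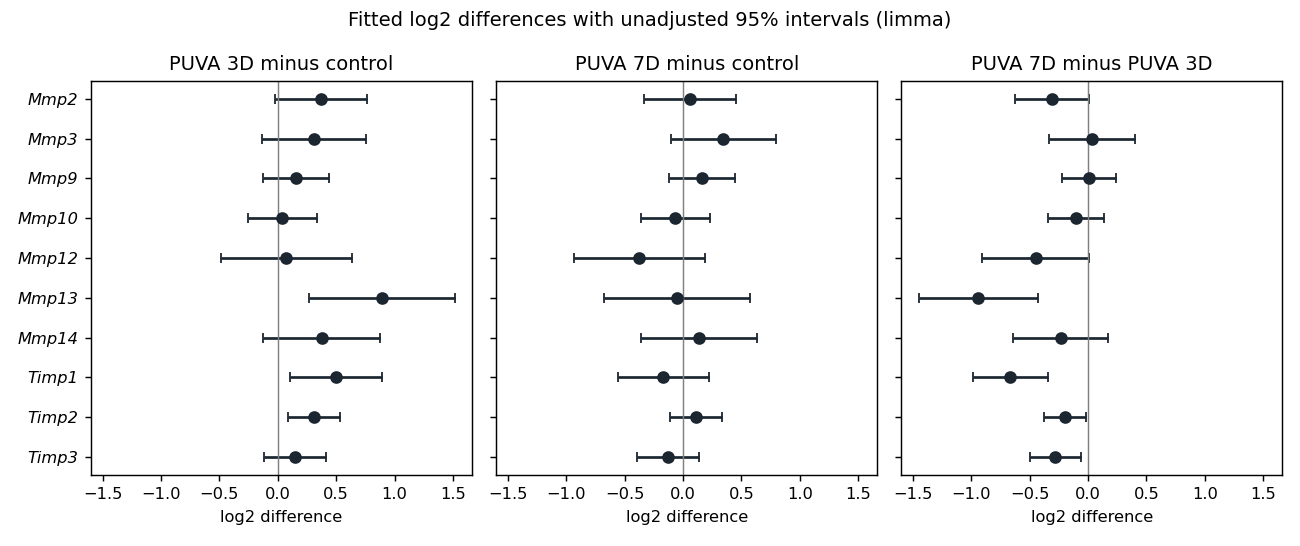
Fitted log2 differences of the 10 genes in the 3 comparisons, with unadjusted 95% intervals from limma (points are estimates, bars are intervals, 0 is no difference). In PUVA 7D minus PUVA 3D the intervals of Mmp13, Timp1, Timp2 and Timp3 lie below 0, and in PUVA 7D minus control every interval includes 0.

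Read by family, the 3 inhibitors had a median log2 difference of -0.28 in PUVA 7D minus PUVA 3D and the 7 enzymes one of -0.24. Against control in PUVA 3D both medians were 0.31. Whether enzymes and inhibitors differed from each other was not tested. In the mean of both PUVA groups minus control, 0 of the 10 passed the adjusted threshold, as for all genes (0%). Timp2, at 0.21 ± 0.09 (unadjusted p 0.0437, adjusted p 0.675 in limma), was the 1 of 10 higher at an unadjusted p under 0.05, against 3.93% of all genes. Spread within groups varied between genes: the pooled SD was 0.11 for Timp2, 0.14 for Timp3 and 0.16 for Mmp9, but 0.35 for Mmp12 and 0.39 for Mmp13.

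Mmp13, Mmp12, Mmp3 and Mmp10 belong to 1 gene cluster. In the RefSeq gene table (assembly GRCm38.p6), 10 metalloproteinase genes follow each other with no other protein-coding gene between them, in the order Mmp13, Mmp12, Mmp1b, Mmp3, Mmp1a, Mmp10, Mmp8, Mmp27, Mmp20 and Mmp7. Mmp13 and its neighbour Mmp12 had the lowest PUVA 7D minus PUVA 3D differences of the 10, at -0.94 and -0.45. Mmp1b beside them had 0.13 ± 0.22, and the other 7 lay between -0.24 (Mmp27) and 0.10 (Mmp20). In PUVA 3D minus control Mmp12 did not stand with Mmp13, at 0.07 against 0.89.

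**Figure D3:**
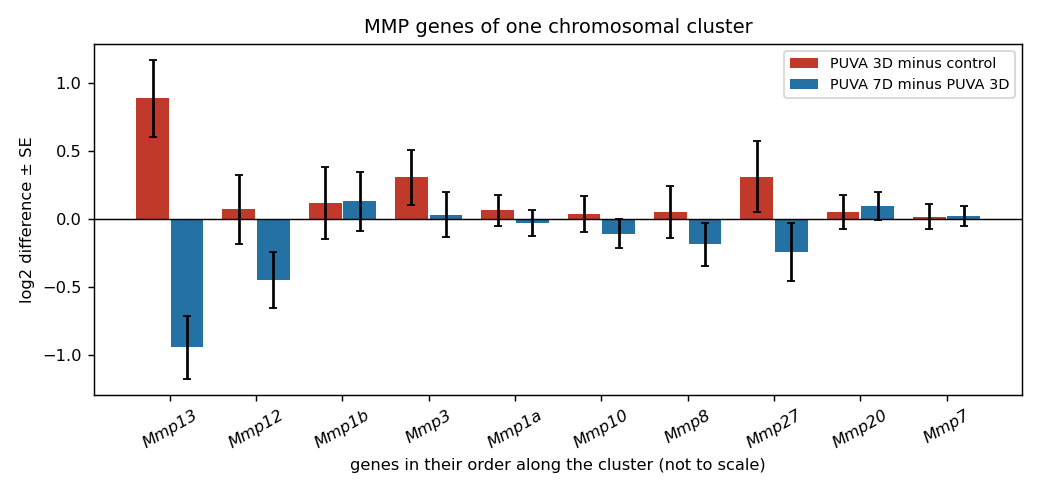
Log2 differences ± SE (limma) of the 10 neighbouring metalloproteinase genes in their order along the cluster, for PUVA 3D minus control (red) and PUVA 7D minus PUVA 3D (blue). Mmp13 at the left end has the largest bars in both, 0.89 and -0.94, and the bars of Mmp12 differ between both, 0.07 and -0.45. Both comparisons use the same PUVA 3D arrays, with opposite sign.

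The rest of the extracellular protease system was read from 5 gene lists. Of 16 other Mmp and Timp genes measured, 0 passed the adjusted threshold in limma in any comparison. In PUVA 3D minus control 2 of the 16 were higher at an unadjusted p under 0.05, against 5.67% of all genes, with a list median of 0.04. Mmp23, an MMP of unusual domain structure, had 0.52 ± 0.19, and Mmp19, an MMP of macrophages and vessel walls, had 0.61 ± 0.26. In PUVA 7D minus PUVA 3D they had -0.53 ± 0.16 and -0.47 ± 0.21. Mmp23 stood at 7.49 to 8.00 in PUVA 3D, above controls of 6.99 and 7.42 and PUVA 7D arrays of 6.80 to 7.36. Mmp19 stood at 9.35 on PUVA 3D replicate 2 and at 8.25, 8.36 and 8.57 on replicates 1, 3 and 4. Its differences thus lean on that 1 array. Mmp21 went the other way, at 0.31 ± 0.10 in PUVA 7D minus PUVA 3D, on values of 4.22 to 4.83. Mmp7 (matrilysin) and Mmp8 (neutrophil collagenase) had PUVA 3D minus control differences of 0.02 ± 0.09 and 0.06 ± 0.19. Mmp27, of the same gene cluster, had 0.31 ± 0.26, and Timp4, the remaining TIMP gene, had -0.10 ± 0.28. Mmp11 (stromelysin 3) had 0.62 ± 0.69, a difference that rests on PUVA 3D replicate 3, at 9.23 against 6.12 to 6.92 on the other 9 arrays. Without that array, left out after the values were seen, it was -0.09.

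Of 18 ADAMTS genes, which encode secreted proteases that cut proteoglycans and process procollagen, 16 were lower in PUVA 7D than in PUVA 3D, against 46.8% of all genes, with a median of -0.26. At an unadjusted limma p under 0.05, 4 of the 18 were lower, against 4.43% of all genes. Adamts16 had -0.55 ± 0.12 (adjusted p 0.236), with values of 4.98 to 5.61 in PUVA 3D, 4.72 to 4.93 in PUVA 7D and 4.70 to 4.85 in control, and Adamts12 had -0.43 ± 0.14. Adamts5, an aggrecanase, differed from that pattern: it had 0.32 ± 0.12 in both PUVA groups against control and -0.00073 ± 0.10 between them. Adamts6 had -0.31 ± 0.13 in PUVA 7D minus control, Adamts1 -0.46 ± 0.30 and Adamts4 -0.29 ± 0.17 in PUVA 7D minus PUVA 3D. Adamts1 stood at 10.07 on PUVA 3D replicate 2 and at 8.86, 8.87 and 9.13 on replicates 1, 3 and 4. Against control the ADAMTS median was 0.06 in PUVA 3D, and its sign turned with the control left out (-0.17 without control replicate 1, 0.24 without control replicate 2).

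All 9 ADAM genes, of membrane proteases that shed cell surface proteins, lay above control in PUVA 3D, against 50.6% of all genes, with a median of 0.28. At an unadjusted limma p under 0.05, 2 of the 9 were higher, against 5.67% of all genes. The ADAM median was 0.16 or 0.13 without control replicate 1 or 2. Adam19 had 0.47 ± 0.12 (adjusted p 0.303 in limma) and Adam15 0.34 ± 0.14. Adam15 stood at 9.64 on PUVA 3D replicate 2 and at 9.11, 9.22 and 9.19 on replicates 1, 3 and 4. In PUVA 7D minus PUVA 3D the ADAM median was -0.19, with Adam12 at -0.82 ± 0.30 and Adam19 at -0.26 ± 0.10. Adam12 stood at 7.80 and 8.25 on PUVA 3D replicates 2 and 3, and at 6.68 and 6.97 on replicates 1 and 4. Its PUVA 7D arrays lay at 6.41 to 6.86, so the groups overlapped and the difference leans on PUVA 3D replicates 2 and 3. The plasminogen system, whose product plasmin activates several metalloproteinase precursors, had 7 of 10 listed genes measured, with a median of 0.22 in PUVA 3D minus control, and -0.01 without control replicate 2. Plau (urokinase) had 0.46 ± 0.30 and 0.42 ± 0.30 and Plat (tissue plasminogen activator) 0.41 ± 0.19 and 0.30 ± 0.19 in PUVA 3D and PUVA 7D against control. Plau stood at 10.18 on PUVA 3D replicate 2 and at 9.39, 8.79 and 9.11 on replicates 1, 3 and 4. Plaur, the urokinase receptor, had 0.28 ± 0.14 in PUVA 3D minus control and -0.34 ± 0.12 in PUVA 7D minus PUVA 3D (adjusted p 0.431 in limma). Mmp15 and Adamts2 were not analysed here.

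Among 14 genes of activators, inhibitors and partners, 11 were lower in PUVA 7D than in PUVA 3D, against 46.8% of all genes, with a median of -0.09. At an unadjusted limma p under 0.05, 2 of the 14 were lower, against 4.43% of all genes. In PUVA 3D minus control the median of that list was 0.19, and 0.06 without control replicate 1. The 2 genes under 0.05 in PUVA 7D minus PUVA 3D were Pcolce, an enhancer of procollagen processing, at -0.42 ± 0.13, and Lrp1, a receptor that clears metalloproteinases and TIMPs, at -0.33 ± 0.12. Reck, a membrane-anchored metalloproteinase inhibitor, had -0.26 ± 0.12 (adjusted p 0.540), with all PUVA 7D arrays (8.38 to 8.77) below all PUVA 3D arrays (8.83 to 8.99), while the controls spanned 8.45 to 9.02. Furin, which cuts the MMP-14 precursor, had 0.22 ± 0.17 in PUVA 3D minus control, and Bsg, the metalloproteinase inducer basigin, had -0.01 ± 0.07. Spock1, a proteoglycan gene, had -0.46 ± 0.18 in PUVA 3D minus control, lower on all 4 arrays. No gene of these 5 lists passed the adjusted threshold in any of the 4 comparisons.

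**Figure D4:**
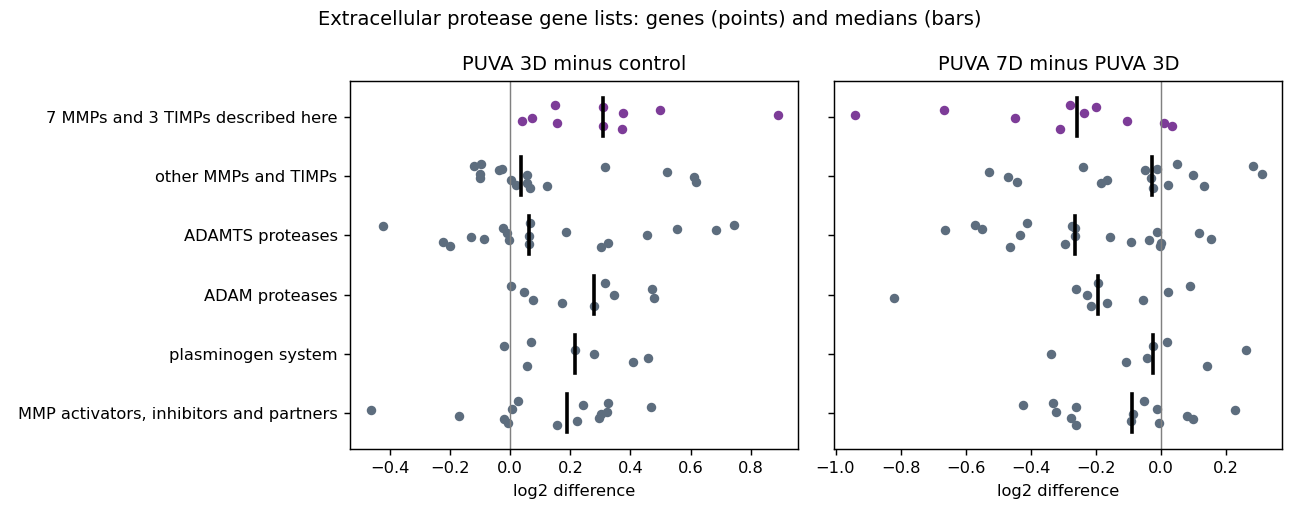
Log2 differences in PUVA 3D minus control (left) and PUVA 7D minus PUVA 3D (right) for the 10 genes and 5 further protease lists; each point is a gene and each black bar a list median. The bar of the 10 genes lies at 0.31 on the left and -0.26 on the right, next to -0.26 for the ADAMTS genes on the right. Both panels use the same PUVA 3D arrays, with opposite sign.

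Genes whose levels followed a member over the 10 arrays were listed by Pearson's r, taking the 3 highest for each member out of all named genes. They were S1pr2, Pfn1 and Tspan3 for Timp1 (0.96 to 0.97), Tgfbr3, Fgfr4 and Serping1 for Mmp2 (0.96 to 0.97), and Sdc2, Mxra7 and Itm2c for Mmp14 (0.95 to 0.96). For Timp3 they were Dpagt1, Snx4 and P4ha2 (0.95 to 0.97), for Timp2 Ncr1, Scara3 and Mrc2 (0.92 to 0.94), and for Mmp12 Pqlc3, B4galnt1 and Tns3 (0.94 to 0.97). Mmp13 was followed by Tbx21, Angpt2 and Bpifb1 (0.90 to 0.91). Mmp3 (Prokr1, 0.93), Mmp9 (Map4, 0.93) and Mmp10 (Kcnh6, 0.90) had leading genes at similar r. The highest of so many correlations over 10 arrays is high for any gene, and these are descriptions.

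Markers of the cells that make these proteins moved with some of the values. All 12 fibroblast markers were above control in PUVA 3D, where 50.6% of all genes were, and below PUVA 3D in PUVA 7D, where 46.8% of all genes were. Their list means were 10.24 and 10.64 in control, 10.63 to 10.97 in PUVA 3D and 10.20 to 10.64 in PUVA 7D. The groups overlapped, as PUVA 3D replicate 1 lay just below control replicate 2 and PUVA 7D replicate 4. How far these means depend on either control was not analysed here. Col1a1, a fibrillar collagen gene among them, stood at 10.38 to 11.63, 11.67 to 12.41 and 10.51 to 11.68, in the same order. The macrophage list was above control in 11 of 12 genes in PUVA 3D, against 50.6% of all genes, with list means of 9.03 to 9.22 in control, 9.25 to 10.1 in PUVA 3D and 9.14 to 9.57 in PUVA 7D. PUVA 3D replicate 2 had the highest macrophage mean (10.1) and the highest Timp1. For Mmp12 the order differed: PUVA 3D replicate 3, with its highest value, had the lowest macrophage mean of PUVA 3D, at 9.25. The part of these cells in the values of Mmp2, Mmp12, Mmp13, Mmp14 and the Timp genes was not tested.

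Neutrophil list means, set beside Mmp9, were 4.63 to 4.71 in control, 4.77 to 4.86 in PUVA 3D and 4.64 to 4.74 in PUVA 7D. Of these 12 markers 7 were above control in PUVA 3D, against 50.6% of all genes, and 5 below, with a median of 0.034. S100a8 was lower in PUVA 3D (3.62 to 3.88) than in control (3.89 to 4.23), with the nearest arrays at 3.885 and 3.887. All its values lay below the lower quartile of all genes (4.49 to 4.57), near the dim end of the arrays. S100a9 overlapped, at 4.78 to 5.14 in PUVA 3D and 4.77 to 4.83 in control. In control, PUVA 3D and PUVA 7D in turn, mast cell means were 6.99 to 7.05, 7.20 to 7.59 and 7.02 to 7.23. Endothelial means were 8.04 to 8.16, 8.25 to 8.35 and 8.22 to 8.30. Keratinocyte means were 11.1 to 11.2, 11.0 to 11.2 and 11.1 to 11.3. Adipocyte means (9.37 to 9.90 on all arrays) and skeletal muscle means (11.4 to 11.9) overlapped between the groups.

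**Figure D5:**
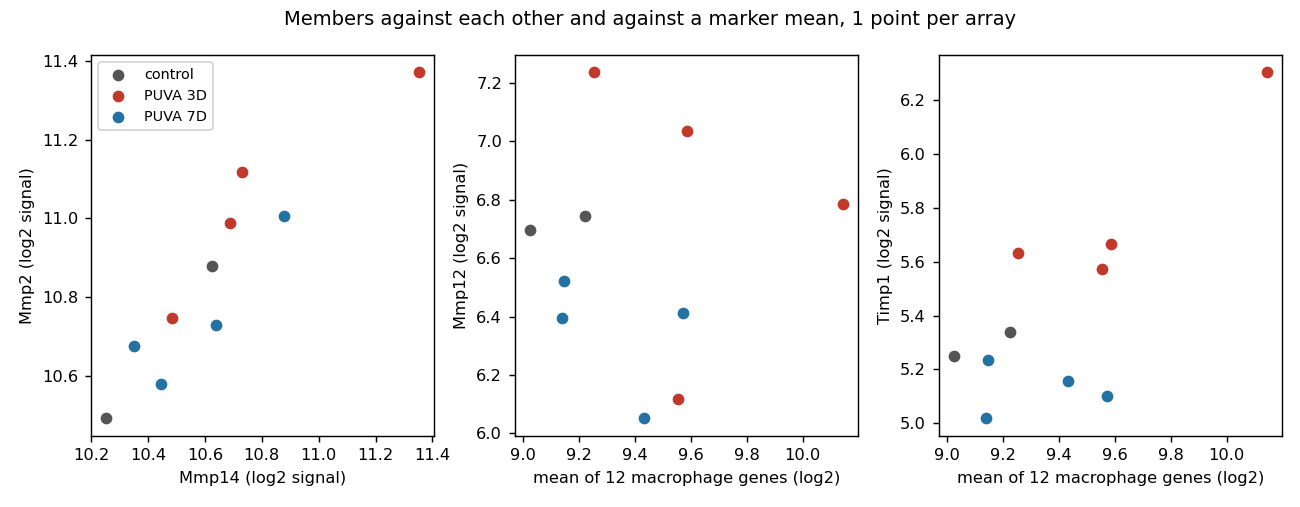
Log2 signals per array (1 point each, coloured by group): Mmp2 against Mmp14 (left), and Mmp12 (middle) and Timp1 (right) against the mean of 12 macrophage genes. Mmp2 and Mmp14 lie along 1 line in all groups, with PUVA 3D replicate 3 at the top, and the upper right point of the Timp1 panel is PUVA 3D replicate 2.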

How the data were processed

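The deposited table held 41345 probe sets with values read here as log2 signals made by the authors; the log base, the normalization and the array software were not found in the sources read here, and the base was inferred from the range. Names came from GEO's platform annotation: 23521 probe sets had 1 gene symbol, 1814 several and 16010 none. Probe sets with 1 symbol were used, and the one with the highest mean where a gene had more, which gave 22180 genes.

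In 1 fit of the 3 groups (limma 3.58.1, R 4.3.3; lmFit and eBayes, two-sided) every gene had 1 spread over the 10 arrays, with Benjamini-Hochberg adjustment over all genes. For a gene whose controls lie far apart, the shared spread understates the error against control. Errors of differences are standard errors. The fit was tested on simulated data: for PUVA 7D minus PUVA 3D, with 200 of 22180 genes changed, it recovered 93% at a log2 size of 1 and 99% at 2, with 17 false calls. Smaller sizes, such as those of the members, were not simulated. Noise was independent between genes, and 200 changed genes ease the adjusted threshold, where the real data gave 2 calls. The shares are thus not the chance of calling a member such as Mmp13, whose within-group SD (0.39) was at percentile 97. The comparisons with control were not simulated.

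The members, the gene lists and the tests were chosen with earlier results of these data known. Named genes were the 10 members, a fixed set, and up to 2 genes per list and comparison with the smallest p under 0.05. Neighbours came from the RefSeq table of GRCm38.p6. Marker lists covered 9 cell types. Tried as alternatives were leaving out the dimmest 30% of genes, other uses of probe sets, quantile and median scaling, eBayes with trend and robust settings, array weights, only the groups compared, and leaving out each array. Replicate numbers follow sample order and pair nothing. The number of arrays, 2 controls above all, limits the precision, and no batch was named.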

Additional observations from a re-analysis of the deposited data

Results flagged for a closer look

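In Timp1, every PUVA 3D array lay above the control mean and every PUVA 7D array below it. The difference between the 2 groups was itself tested in limma, with a PUVA 7D minus PUVA 3D value of -0.67 and an adjusted p of 0.235, so it did not pass. Also in Timp1, PUVA 3D replicate 2, at 6.306, stood far above the next array of its group (5.667). In Mmp3, PUVA 3D replicate 1, at 7.735, stood below the next (7.976). These 2 came from 20 groups of 4 arrays checked for a single array far from the others, where chance gives about 1 in 20.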

How the results depend on the processing

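None of the 10 genes passed the adjusted threshold in any comparison under any alternative run. Of 706 fitted member differences under alternatives, 678 kept their direction and 28 reversed. With the lowest 30% of genes left out, Mmp13 was not tested.

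Members at an unadjusted limma p under 0.05 were counted with each PUVA array left out in turn. They numbered 3 to 4 in PUVA 3D minus control and 3 to 5 in PUVA 7D minus PUVA 3D. In PUVA 7D minus control they numbered 0 to 1, and in the mean of PUVA minus control 0 to 2. With only the groups compared there was 1 in PUVA 7D minus control. For the mean of PUVA there were 0 with quantile normalization and 0 with array weights. Shares of all genes under these alternatives were not analysed here, so the counts cannot show whether the members differ from other genes. Without 1 of the controls only 1 control remains, and no count is given. The PUVA 3D minus control median was then 0.20 without control replicate 1 and 0.45 without control replicate 2.

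Over all genes, calls when 1 array was left out ran from 1 to 182 in PUVA 3D minus control, 0 to 217 in PUVA 7D minus control, 0 to 10 in PUVA 7D minus PUVA 3D and 0 to 226 for the mean of PUVA, with the top of all but the third reached without control replicate 1, where 1 control remains and its spread is taken from the PUVA arrays. In PUVA 3D minus control there were 2 with median centring and 3 with array weights, against 1. In PUVA 7D minus PUVA 3D there were 1 without the lowest 30% of genes, 4 with median centring, 6 with array weights and 1 with only the groups compared, against 2. The cause was not tested.

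Directions that turned were these. With 1 array left out, PUVA 3D minus control ran from -0.11 to 0.73 in Mmp3, -0.016 to 0.10 in Mmp10 and -0.074 to 0.30 in Mmp12. PUVA 7D minus control ran from -0.13 to 0.26 in Mmp2, -0.074 to 0.76 in Mmp3, -0.13 to 0.027 in Mmp10, -0.39 to 0.29 in Mmp13 and -0.047 to 0.32 in Mmp14. PUVA 7D minus PUVA 3D ran from -0.038 to 0.094 in Mmp3 and -0.059 to 0.083 in Mmp9, and the mean of PUVA minus control from -0.091 to 0.75 in Mmp3, -0.044 to 0.033 in Mmp10 and -0.055 to 0.072 in Timp3. Array weights gave -0.012 for Mmp10 in PUVA 3D minus control and -0.0091 for Mmp9 in PUVA 7D minus PUVA 3D. For the mean of PUVA, median centring gave 0.0015 for Mmp10 and quantile normalization -0.0098 for Timp3.

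Without PUVA 3D replicate 3, an alternative chosen after seeing the data, Mmp11 turned to -0.091 in PUVA 3D minus control and to 0.27 in PUVA 7D minus PUVA 3D. What dim signal limits could not be read without a background measure. No paired analysis was possible because the sample titles carry no number shared between groups.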

Other observations

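Mmp11, which encodes stromelysin 3, stood on PUVA 3D replicate 3 at 9.23, a log2 gap of 2.31 above the next highest array, and this was the widest such gap of that array among all named genes. Other genes that stood above all other arrays there were Tmprss11e, a serine protease gene (9.13 against 7.88), and Rptn, the repetin gene of the epidermal barrier (9.75 against 8.49). The same array had the highest values of its group in 5 of the 10 genes: Mmp2, Mmp12, Mmp13, Mmp14 and Timp2. PUVA 3D replicates 1, 2 and 4 had the highest in 2, 2 and 1, and replicate 1 had the lowest in 6. The same shares over all genes were not analysed here, so these counts only describe the arrays. On PUVA 3D replicate 2, the array with the highest Timp1 and Timp3, the widest gaps were those of Msr1 (8.42 against 6.53), Ccl12 (8.27 against 6.45) and Klk1 (7.29 against 5.51), with P4ha3, a collagen prolyl hydroxylase subunit gene, at 8.99 against 7.30. These genes were chosen after their values were seen, and no test of a single array was made.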
